A study of Mus musculus with 8 samples.

Results

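The genes described here are the sterol and fatty acid synthesis genes that SREBP transcription factors control, measured by RNA sequencing in mouse peritoneal macrophages with and without MED1. Members were the rows of the deposited expression table that carry 1 of 35 listed gene symbols, a choice made by name. Of these symbols, 33 were found, on 34 of the 23735 loci of the table. Sc5dl and Sc4mol, older names of Sc5d and Msmo1, were not among its symbols. The filter of at least 1 RPKM in at least 2 libraries kept 31 members.

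The 4 groups, of 2 libraries each, were KO macrophages with lipopolysaccharide (LPS), WT macrophages with LPS, untreated KO macrophages and untreated WT macrophages. KO stands for mice labelled as lacking MED1 in macrophages (MED1ΔMac), and WT for MED1fl/fl controls, whose Med1 alleles are floxed but not deleted. All mice were C57BL/6J and 8 weeks of age, and LPS, a bacterial product that activates TLR4, was given at 50 ng/mL for 6 h. Neither the Cre driver nor the number of animals behind a library is stated by the labels. The 2 libraries of a group carry the letters A and B with no stated meaning, so p-values measure the spread between these libraries, which may be technical.

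Values are the authors' RPKM, which scale reads by transcript length and library size. Depth, estimated from the steps between low values, was 6.97 to 14.35 M mapped reads, so that 1 read on 1 kb of transcript was worth 0.0697 to 0.143 RPKM. Med1 had 24.4 and 20.3 RPKM in KO with LPS, 24.7 and 21.6 in WT with LPS, 17.6 and 23.4 in untreated KO, and 21.7 and 24.8 in untreated WT (libraries A and B). It was lower in KO in 4 of 4 letter pairs, but its mean log2 difference over both treatments was -0.12 (SE 0.15, limma adjusted p = 0.999). The deposited Med1 value covers the whole locus and does not show which exons were removed, so KO means libraries labelled as knockout. Of 9 macrophage markers, 8 were in the table and each reached 1 RPKM. Lyz2, the lysozyme of macrophages and the most abundant of them, had 5111 and 4547 RPKM in KO with LPS, 17329 and 13231 in WT with LPS, 8503 and 15001 in untreated KO, and 28588 and 32317 in untreated WT. The sum of the other 7 differed less between KO and WT. It was 3241 and 3772 RPKM in KO with LPS, 3914 and 5402 in WT with LPS, 3148 and 3149 in untreated KO, and 3428 and 3348 in untreated WT. Single markers could differ more: with LPS, Fcgr1 had 1.93 and 0.455 RPKM in KO, against 5.73 and 4.63 in WT. Untreated, Fcgr1 had 6.29 and 17.3 RPKM in KO, against 6.75 and 4.11 in WT.

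SREBPs are transcription factors made as membrane proteins of the endoplasmic reticulum. SCAP escorts them to the Golgi, where proteases release the active part, and the INSIG proteins hold SCAP back when sterols are plentiful. SREBF2 mainly drives the enzymes that build cholesterol from acetyl-CoA through mevalonate, squalene and lanosterol, while SREBF1 mainly drives fatty acid synthesis, elongation and desaturation. Macrophages also take up cholesterol from the cells they engulf, and TLR4 signalling is known to change their lipid synthesis.

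By median over the 8 libraries, Acly, which makes cytosolic acetyl-CoA from citrate, was the most abundant member at 73.0 RPKM. Fdps, which makes farnesyl pyrophosphate, followed at 50.2, the regulator Insig1 at 42.0 and the lanosterol-pathway oxidase Msmo1 at 41.4 RPKM. Pooled over treatments, their ranges overlapped (51.3 to 102.3 RPKM for Acly, 26.8 to 72.0 for Fdps). In the untreated libraries those of Acly and Fdps did not, with at least 79.1 RPKM for Acly and at most 55.4 for Fdps. At the low end, the thiolase Acat2 had a median of 3.90 RPKM, the sterol reductase Hsd17b7 3.42 and the desaturase Fads2 0.695 RPKM, and Fads2 passed the filter on 2 libraries alone. The elongase Elovl6 lay between 0.139 and 0.442 RPKM, below the filter. Hmgcs1, the synthase at the start of the mevalonate route, was on 2 loci, both listed at 0 in all 8 libraries. Of 84 symbols looked up, ribosomal by the form of their name or listed as housekeeping, 1 was also at 0 throughout. Whether the 0 of Hmgcs1 is absent RNA or a failed estimate was not tested.

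**Figure D1:**
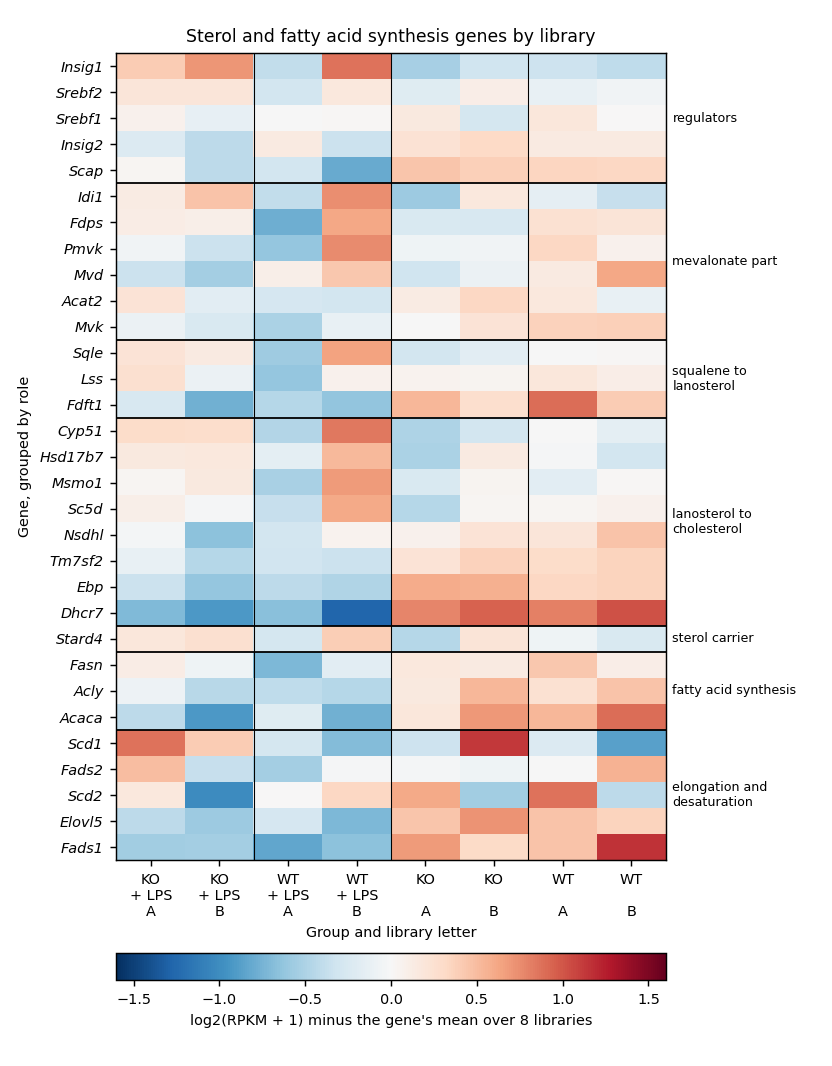
Heat map of the 31 members above the filter, grouped by role (rows), in the 8 libraries (columns), coloured by log2(RPKM + 1) minus the gene's mean over the libraries. Dhcr7, Ebp, Fdft1, Fads1, Elovl5 and Acaca are below their mean in all 4 LPS libraries, while Insig1, Cyp51 and Idi1 are above it in 3 of the 4, WT with LPS A being the exception.

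LPS was compared with no treatment first, to see how the pathway responded. Members of both branches fell and none rose at an adjusted p under 0.05. Dhcr7 and Ebp of late cholesterol synthesis, Fdft1 at the entry to the sterol branch, and the fatty acid genes Fads1, Elovl5, Acaca and Acly were lower in all 4 LPS libraries than in all 4 untreated ones. Averaged over both genotypes, 9 of the 31 members fell, or 29.0%, against 21.8% of all 11272 loci tested, and 0 rose, against 8.46% of loci. The median log2 change was -0.22 over the members and -0.26 over all loci. In limma, 14 of the 31 members had an unadjusted p under 0.05, as did 5055 of the 11272 loci. Among the 14 members, Insig1 alone was higher. Scaling by median ratios brought the median of all loci to -0.01 and turned that of the members to 0.037. It also evened the calls over all loci, to 1586 higher and 1523 lower, against 954 higher and 2456 lower with the scaling as deposited. The changes below are on the log2(RPKM + 1) scale, which understates those of low genes.

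The largest fall was that of Dhcr7, the reductase of the last step of one route to cholesterol (chromosome 7, 151009050 to 151034315, plus strand, mm9). Dhcr7 had 2.28 and 1.83 RPKM in KO with LPS, against 8.12 and 9.26 in untreated KO. It had 2.35 and 1.21 RPKM in WT with LPS, against 8.35 and 9.84 in untreated WT. All 4 LPS libraries lay below all 4 untreated libraries, with a wide gap. Dhcr7 fell by 1.67 in KO (SE 0.26, adjusted p = 0.0188), by 1.89 in WT (SE 0.26, adjusted p = 0.0152) and by 1.78 on average (SE 0.18, adjusted p = 0.0019). Ebp, the isomerase that shifts the sterol ring's double bond (chromosome X, 7762455 to 7770638, minus strand), was the other member called in both genotypes. It had 12.7 and 10.3 RPKM in KO with LPS, against 25.2 and 24.6 in untreated KO, and 11.97 and 11.4 in WT with LPS, against 20.9 and 21.1 in untreated WT. The groups did not overlap in either genotype. Ebp fell by 1.06 in KO (SE 0.18, adjusted p = 0.0240) and by 0.80 in WT (SE 0.18, adjusted p = 0.0483), a call in WT that was lost under both other scalings (adjusted p = 0.0960 with median ratios and 0.0590 with quantile normalization).

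Of the 8 lanosterol-to-cholesterol enzymes, 3 fell on average, where 21.8% of all loci did. The third was Tm7sf2, a sterol reductase whose locus also carries Vps51, so that their reads cannot be separated. It had 13.3 and 10.2 RPKM in KO with LPS, 11.5 and 11.1 in WT with LPS, 17.04 and 18.9 in untreated KO, and 17.9 and 18.7 in untreated WT. The LPS libraries were all lower, and the average change was -0.62 (SE 0.14, adjusted p = 0.0177). Fdft1, squalene synthase, commits farnesyl pyrophosphate to sterols (chromosome 14, 63763990 to 63796630, minus strand). Fdft1 had 23.8 and 16.3 RPKM in KO with LPS, 20.6 and 18.1 in WT with LPS, 42.0 and 34.7 in untreated KO, and 54.0 and 38.4 in untreated WT. No LPS library reached the lowest untreated one. Fdft1 fell by 1.06 on average (SE 0.18, adjusted p = 0.0087) and by 1.19 in WT (SE 0.26, adjusted p = 0.0418). In KO its change of -0.92 passed only with the letters in the fit (adjusted p = 0.0213, against 0.0763 without).

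In the fatty acid branch, 4 of the 8 genes tested fell on average, where 21.8% of all loci did. Fads1, the delta-5 desaturase that completes arachidonic acid (chromosome 19, 10257378 to 10271360, plus strand), had 7.63 and 7.74 RPKM in KO with LPS, against 19.4 and 14.8 in untreated KO. In WT it had 6.13 and 7.11 RPKM with LPS, against 16.4 and 27.3 untreated. The LPS libraries were close together and the untreated ones spread, without overlap. Fads1 fell by 1.30 on average (SE 0.19, adjusted p = 0.0053) and by 1.54 in WT (SE 0.27, adjusted p = 0.0243). Its change in KO, -1.05, passed with the letters in the fit (adjusted p = 0.0464, against 0.0632 without). Elovl5, which elongates polyunsaturated fatty acids (chromosome 9, 77765171 to 77832326, plus strand), had 22.7 and 20.2 RPKM in KO with LPS, 25.3 and 18.3 in WT with LPS, 41.9 and 50.9 in untreated KO, and 42.5 and 39.3 in untreated WT. Again no LPS library reached an untreated one. Elovl5 fell by 0.98 on average (SE 0.16, adjusted p = 0.0063) and by 1.07 in KO (SE 0.22, adjusted p = 0.0365). In WT its change of -0.89 passed with the letters in the fit (adjusted p = 0.0341, against 0.0555 without).

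Acaca, acetyl-CoA carboxylase, makes the malonyl-CoA from which fatty acids are built. Acaca had 9.33 and 6.27 RPKM in KO with LPS, 11.01 and 7.11 in WT with LPS, 14.6 and 21.4 in untreated KO, and 19.0 and 24.6 in untreated WT. The LPS libraries were all lower, and Acaca fell by 1.15 on average (SE 0.22, adjusted p = 0.0111). In WT its change of -1.20 passed with the letters in the fit (adjusted p = 0.0450, against 0.0625 without). Acly had 66.9 and 51.9 RPKM in KO with LPS, 53.4 and 51.3 in WT with LPS, 79.1 and 102.3 in untreated KO, and 84.2 and 97.2 in untreated WT. These did not overlap either, and Acly fell by 0.69 on average (SE 0.16, adjusted p = 0.0180). Fasn, the synthase that follows Acaca in the same route, had 11.4 and 9.92 RPKM in KO with LPS, 5.94 and 9.16 in WT with LPS, 11.8 and 11.6 in untreated KO, and 14.5 and 11.3 in untreated WT. Its highest LPS library overlapped the untreated ones, and its average change of -0.42 did not pass (adjusted p = 0.101).

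**Figure D2:**
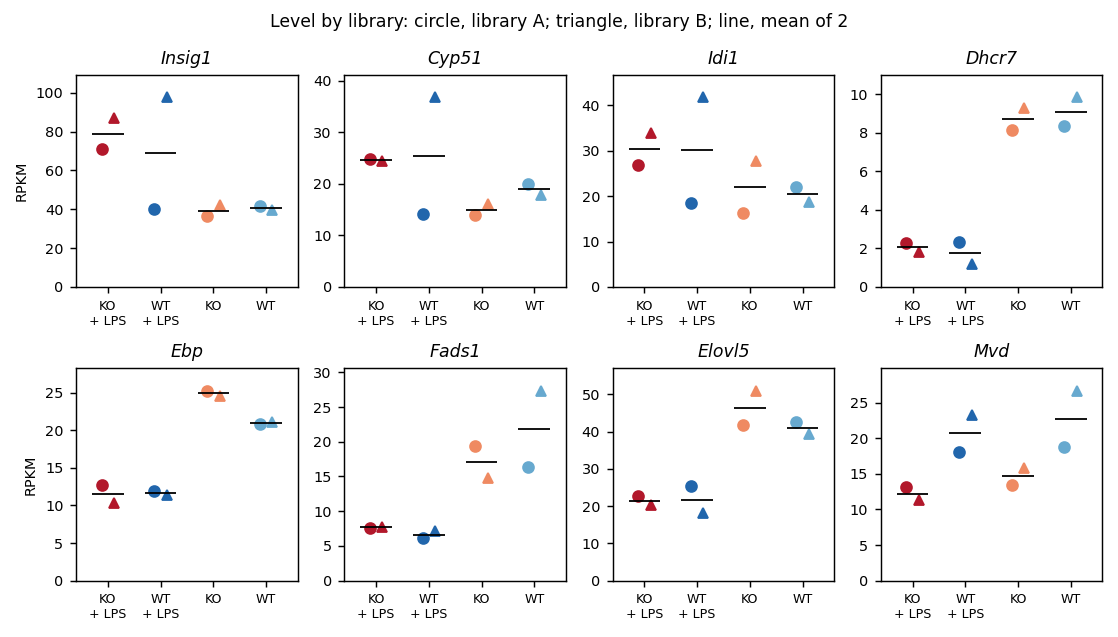
RPKM of 8 members in every library by group, with circles for letter A, triangles for letter B and a line at the mean of the 2. Dhcr7, Ebp, Fads1 and Elovl5 separate LPS from untreated libraries, Insig1, Cyp51 and Idi1 differ widely between the letters in WT with LPS, and Mvd is lower in KO than in WT in each treatment.

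By genotype, 3 of 31 members fell in KO (Dhcr7, Elovl5, Ebp; 9.68%, against 3.31% of loci) and 4 in WT (Dhcr7, Fads1, Fdft1, Ebp; 12.9%, against 3.14% of loci). None rose in either genotype, where 3.31% of loci rose in KO and 3.17% in WT. With the letters in the fit, 5 fell in KO (9.04% of loci) and 7 in WT (10.4% of loci), so more loci passed in the whole table as well. Under median-ratio scaling, Dhcr7 alone fell in WT (adjusted p = 0.0710 for Fdft1 and 0.0511 for Fads1). Leaving out 1 library gave 0 falls in KO without KO with LPS A, KO with LPS B or untreated KO B, where 3 to 15 of all loci fell, and 0 in WT without WT with LPS B, untreated WT A or untreated WT B, where 1 to 23 did. The averaged comparison was steadier: Dhcr7, Fads1, Acaca, Fdft1, Elovl5 and Ebp passed under all 14 alternatives tried. Scap, Tm7sf2 and Acly lost their average call without KO with LPS B, untreated WT A or untreated WT B (adjusted p from 0.0523 to 0.0882), and Acly also without WT with LPS B (adjusted p = 0.0502). Acly and Tm7sf2 lost it under median-ratio scaling too (adjusted p = 0.0782 and 0.0792).

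Libraries that do not overlap between treatments were common in the whole table as well. In KO, 14 members, or 45.2%, were lower in both LPS libraries than in both untreated ones, against 48% of loci, and 6, or 19.4%, were higher, against 15.1%. The 6 were Insig1, Cyp51, Sqle, Fdps, Hsd17b7 and Srebf2. In WT, 15 members, or 48.4%, were lower, against 45.9% of loci, and 0 were higher, against 18.2%. Over both genotypes, 11 members, or 35.5%, were lower in all 4 LPS libraries, against 30% of loci, and 0 were higher, against 9.2%. The 11 were the 9 called genes and Mvk and Nsdhl. Mvk, mevalonate kinase, changed by -0.47 (adjusted p = 0.0557) and Nsdhl, which helps to remove methyl groups from lanosterol, by -0.47 (adjusted p = 0.103).

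**Figure D3:**
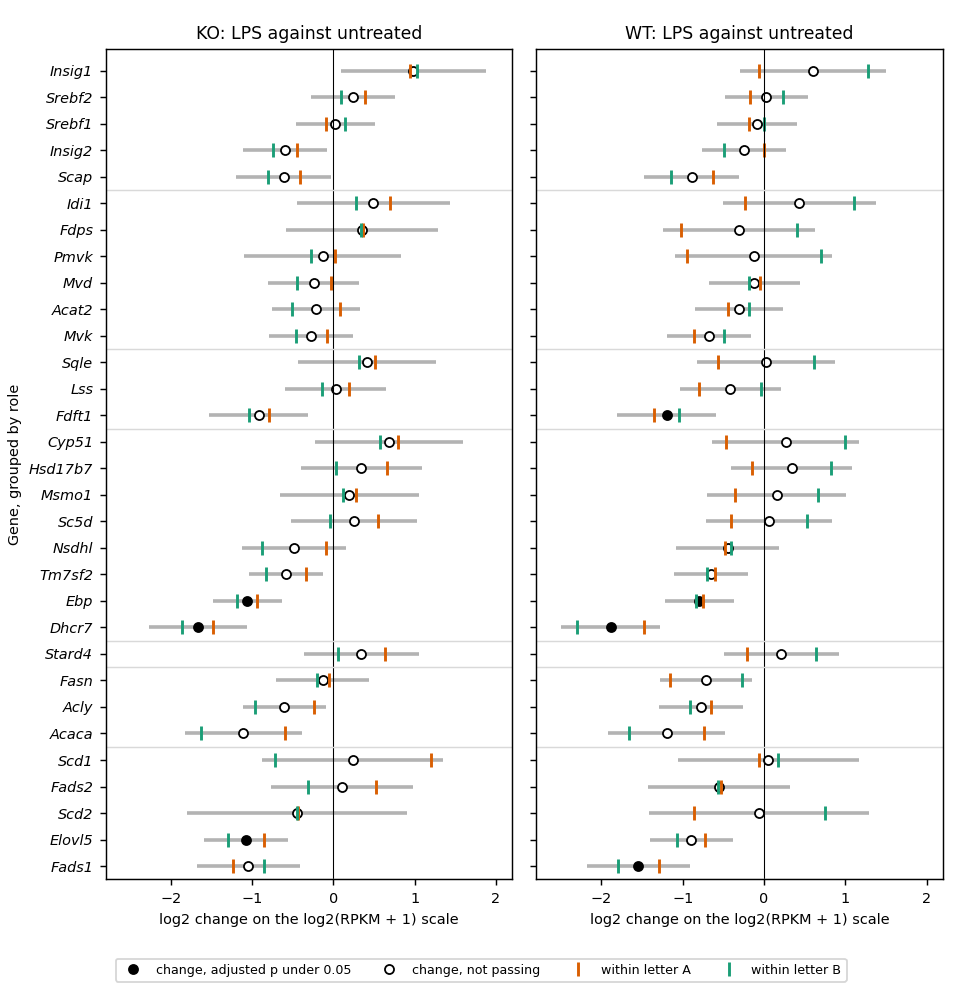
LPS minus untreated change of each member on the log2(RPKM + 1) scale in KO (left) and WT (right), with 95% intervals from limma as grey bars, filled points where the adjusted p is under 0.05, and the change within letter A (orange) and letter B (green). For Idi1, Cyp51, Sqle and Msmo1 the orange and green marks lie on either side of 0 in WT and both above 0 in KO, and those of Dhcr7 and Ebp lie below 0 throughout.

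Of the 5 regulators, Scap alone passed on average, where 21.8% of all loci fell and 8.46% rose. Insig1, which retains SCAP and is itself a target of SREBPs (chromosome 5, 28397952 to 28405201, plus strand), had 70.8 and 86.8 RPKM in KO with LPS, against 36.3 and 42.2 in untreated KO. In WT it had 39.9 and 97.6 RPKM with LPS, against 41.8 and 39.8 untreated. Both KO libraries with LPS and WT with LPS B were high, while WT with LPS A lay among the untreated libraries. The change was 0.98 in KO (SE 0.38, adjusted p = 0.142), 0.60 in WT (SE 0.38, adjusted p = 0.324) and 0.79 on average (SE 0.27, adjusted p = 0.0610), which passed with the letters in the fit (adjusted p = 0.0297, where 9.78% of loci rose). Scap, the escort itself (chromosome 9, 110235792 to 110287450, plus strand), had 9.46 and 6.65 RPKM in KO with LPS, 7.38 and 4.85 in WT with LPS, 13.0 and 12.3 in untreated KO, and 11.97 and 11.9 in untreated WT. Its LPS libraries were all lower, and Scap fell by 0.75 on average (SE 0.18, adjusted p = 0.0207). In WT its change of -0.89 passed with the letters in the fit (adjusted p = 0.0392, against 0.0742 without).

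The SREBP genes themselves did not pass in any comparison. Srebf2 had 38.7 and 38.6 RPKM in KO with LPS, 27.2 and 38.0 in WT with LPS, 29.2 and 36.2 in untreated KO, and 30.8 and 32.2 in untreated WT. Srebf1 had 23.8 and 20.6 RPKM in KO with LPS, 22.6 and 22.9 in WT with LPS, 25.3 and 18.6 in untreated KO, and 25.8 and 22.9 in untreated WT. Both KO libraries with LPS lay above both untreated KO and both WT with LPS libraries for Srebf2. With the genotypes pooled, the LPS and untreated libraries of both genes overlapped. The average LPS changes were 0.14 for Srebf2 (95% interval -0.23 to 0.50) and -0.03 for Srebf1 (95% interval -0.38 to 0.32). Insig2, the other INSIG protein, had 10.1 and 8.65 RPKM in KO with LPS, 13.3 and 9.15 in WT with LPS, 14.1 and 15.1 in untreated KO, and 13.2 and 13.3 in untreated WT. Its KO libraries with LPS were lower than the untreated ones, one WT library was not, and the average change of -0.42 did not pass (adjusted p = 0.0782). RNA levels do not measure the processing step at which INSIG and SCAP act.

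Insig1 and Cyp51, which lay higher in LPS-treated KO libraries, and Ebp and Elovl5, which fell, are shown with the 250 bases before their RefSeq start sites (build GRCm38.p6, 5′ to 3′ on the gene's strand). Capitals mark CACGTG, the E-box that SREBPs and other factors can bind, and CCAAT, the NF-Y box, on either strand (ATTGG on the other). The windows are Insig1 at chr5:28071162-28071411 (plus), Cyp51 at chr5:4104698-4104947 (minus), Ebp at chrX:8193513-8193762 (minus) and Elovl5 at chr9:77917115-77917364 (plus).
Insig1: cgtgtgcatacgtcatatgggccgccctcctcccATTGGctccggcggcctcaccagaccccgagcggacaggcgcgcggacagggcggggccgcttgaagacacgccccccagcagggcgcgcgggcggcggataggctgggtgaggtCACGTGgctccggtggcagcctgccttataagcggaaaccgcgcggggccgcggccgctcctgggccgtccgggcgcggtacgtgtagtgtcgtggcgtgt
Cyp51: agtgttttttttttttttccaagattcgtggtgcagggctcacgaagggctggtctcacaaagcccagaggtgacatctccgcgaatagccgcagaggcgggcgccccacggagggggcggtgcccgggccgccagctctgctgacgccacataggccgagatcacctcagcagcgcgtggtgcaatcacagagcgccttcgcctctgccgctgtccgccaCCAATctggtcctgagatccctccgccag
Ebp: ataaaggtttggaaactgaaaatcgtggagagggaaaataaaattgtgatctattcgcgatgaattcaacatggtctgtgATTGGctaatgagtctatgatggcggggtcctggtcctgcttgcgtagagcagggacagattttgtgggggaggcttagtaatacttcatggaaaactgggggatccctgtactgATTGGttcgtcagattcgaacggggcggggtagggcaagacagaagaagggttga
Elovl5: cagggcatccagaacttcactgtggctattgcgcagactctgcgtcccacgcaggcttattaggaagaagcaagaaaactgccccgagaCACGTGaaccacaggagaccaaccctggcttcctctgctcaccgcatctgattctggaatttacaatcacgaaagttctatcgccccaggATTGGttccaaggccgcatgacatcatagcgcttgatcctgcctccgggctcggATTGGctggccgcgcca
Both Insig1 and Elovl5 hold an E-box, and all 4 hold at least 1 CCAAT. The average LPS changes of Insig1 and Elovl5 were 0.79 and -0.98, and a link of the changes to these motifs was not tested.

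RefSeq windows, from 250 bases before to 50 after a start site, were found for 26 of the 33 members, 34 windows in all. CCAAT was in 64.7% of these windows, against 37.4% of all 32851 windows of the table, and the Sp1 box GGGCGG in 73.5%, against 35.7%. CACGTG was in 20.6%, against 7.15%, held by Dhcr7, Elovl5, Hsd17b7, Insig1, Sc5d and Scap. The sterol regulatory element form TCACNCCAC was in 1 member window, that of Hmgcs1, and in 1.24% of all windows. The motifs were searched on both strands, and matches of different motifs were each counted even where they share bases. These are matches of letters and not measured binding.

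For some sterol enzymes, here Cyp51, Idi1 and Sqle, the change with LPS in WT depended on which library was read. Cyp51, the lanosterol demethylase (chromosome 5, 4081145 to 4104746, minus strand), had 24.7 and 24.5 RPKM in KO with LPS, against 13.9 and 16.1 in untreated KO. In WT it had 14.1 and 36.8 RPKM with LPS, against 19.9 and 17.9 untreated. WT with LPS A was thus below and WT with LPS B above both untreated WT libraries. Idi1, which interconverts the isoprenoid building blocks, had 26.9 and 34.0 RPKM in KO with LPS, 18.6 and 41.8 in WT with LPS, 16.2 and 27.8 in untreated KO, and 22.1 and 18.8 in untreated WT. Sqle, squalene epoxidase, had 16.0 and 15.2 RPKM in KO with LPS, 8.84 and 21.9 in WT with LPS, 10.9 and 12.1 in untreated KO, and 13.6 and 13.9 in untreated WT. In all 3 genes, the WT libraries with LPS were the lowest and the highest of the LPS-treated ones. None passed on average: the changes were 0.48 for Cyp51 (adjusted p = 0.213), 0.46 for Idi1 (adjusted p = 0.239) and 0.22 for Sqle (adjusted p = 0.531).

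Over the 17 sterol synthesis enzymes tested, from Acat2 to Dhcr7, WT with LPS A held the lowest value of the 4 LPS libraries in 10 and WT with LPS B the highest in 10. The share of all loci with these ranks was not counted. Their summed level was 288 and 271 RPKM in KO with LPS, 203 and 384 in WT with LPS, 273 and 304 in untreated KO, and 335 and 326 in untreated WT. The spread between the 2 WT libraries with LPS exceeded that within any other group. Within letter A, LPS was higher than untreated in 10 of 17 enzymes in KO (36.2% of all loci) and in 0 of 17 in WT (42.4% of all loci). Within letter B it was higher in 6 of 17 in KO (25.6% of all loci) and in 8 of 17 in WT (26.7% of all loci). The median changes of the 17 were 0.08 and -0.28 in KO and -0.57 and -0.03 in WT (letters A and B). Those of all loci were -0.17 and -0.41 in KO and -0.08 and -0.41 in WT.

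Without WT with LPS A, 5 members passed as higher on average, where 8.65% of loci did, namely Insig1 (1.11, adjusted p = 0.0045), Cyp51 (0.81, adjusted p = 0.0071), Idi1 (0.75, adjusted p = 0.0432), Sqle (0.52, adjusted p = 0.0199) and Msmo1 (0.47, adjusted p = 0.0452). Insig1 and Cyp51 then passed in WT too (adjusted p = 0.0225 and 0.0307, where 4.62% of loci rose), on WT with LPS B alone. Both also passed as higher in KO when either WT library with LPS was left out of the shared estimate of spread (adjusted p from 0.0278 to 0.0462, where 4.32% of loci rose without WT with LPS A and 4.29% without WT with LPS B), their KO changes of 0.98 and 0.68 being the same. The direction of these genes in WT rests on 1 library: Insig1 changed by -0.07 in WT within letter A and by 1.27 within letter B. Markers of several other cell types were higher in letter B. This held in all 4 groups for 5 of 5 mast cell, 5 of 5 T cell and 2 of 2 NK cell markers in the table. It also held for 2 of 4 dendritic cell and 2 of 5 large peritoneal macrophage markers, against 6.83% of all loci tested. Both NK cell markers and the dendritic cell marker Xcr1 stayed below 1 RPKM in every library, so they were not among those loci. Of other types, it held for 1 of 8 macrophage, 1 of 6 B cell, 1 of 5 neutrophil and 1 of 5 mesothelium markers. It held for 0 of 3 eosinophil, 0 of 6 adipocyte and 0 of 5 erythroid marker loci. The mast cell markers had summed levels of 3.06 and 68.3 RPKM in KO with LPS, 24.1 and 86.2 in WT with LPS, 0.249 and 165 in untreated KO, and 0.835 and 72.7 in untreated WT (libraries A and B). Mcpt4 was at 0 in both KO libraries A and Tpsb2 in untreated KO A. The T cell sums were 8.68 and 27.1 RPKM in KO with LPS, 5.84 and 10.8 in WT with LPS, 6.56 and 48.2 in untreated KO, and 8.73 and 19.1 in untreated WT. Timd4, a receptor of resident peritoneal macrophages, had 20.2 and 31.8 RPKM in KO with LPS, 25.1 and 44.0 in WT with LPS, 1.13 and 71.5 in untreated KO, and 2.47 and 42.9 in untreated WT. Other large peritoneal macrophage markers went the other way: Gata6 and Selp were higher in letter A in every group but untreated KO, and Icam2 in KO with LPS alone. Gata6 had 3.77 and 3.59 RPKM in KO with LPS, 4.21 and 4.04 in WT with LPS, 7.24 and 11.6 in untreated KO, and 9.13 and 8.74 in untreated WT. In bulk samples, fewer cells of a type and less RNA per cell cannot be told apart. The part of these cell types in the letter difference was not tested.

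**Figure D4:**
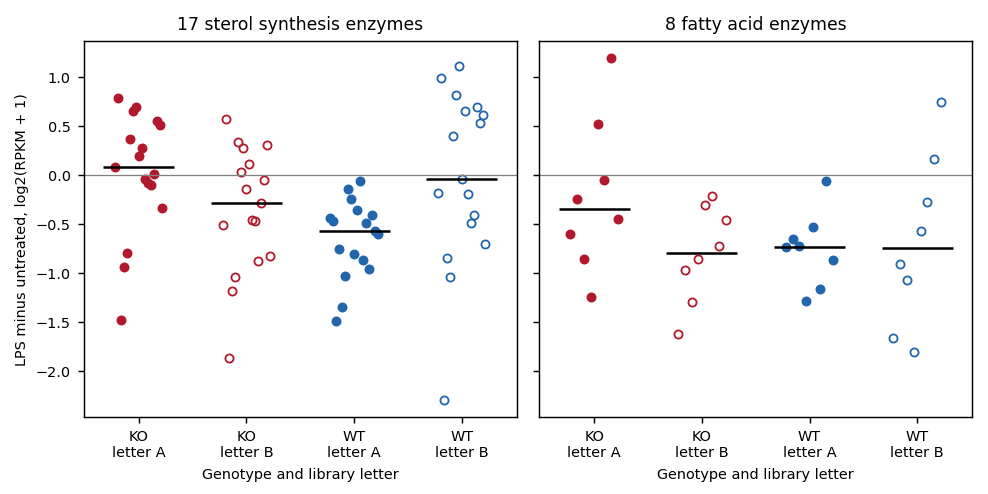
LPS minus untreated change, on the log2(RPKM + 1) scale, of each sterol synthesis enzyme (left, 17) and fatty acid enzyme (right, 8) within each genotype and letter, with a line at the median. All 17 sterol enzymes are below 0 in WT letter A, against 7 of 17 in KO letter A, and the fatty acid medians are below 0 in all 4.

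The remaining sterol genes had no call. The enzymes of the mevalonate part, 6 of which were tested, had average LPS changes between -0.47 (Mvk) and 0.46 (Idi1). Among these, the kinase Pmvk changed by -0.13, Fdps by 0.02, the decarboxylase Mvd by -0.18 and Acat2, which has the near-identical neighbour Acat3, by -0.26. Lss, which closes the lanosterol ring, changed by -0.19. Of the later enzymes, the desaturase Sc5d changed by 0.16, Msmo1 by 0.18 and Hsd17b7 by 0.34. Stard4, a carrier of cholesterol between membranes, had 12.2 and 13.0 RPKM in KO with LPS, 8.62 and 14.3 in WT with LPS, 7.51 and 12.4 in untreated KO, and 10.1 and 8.83 in untreated WT. These groups overlapped, and the average change was 0.28 (adjusted p = 0.338). The stearoyl-CoA desaturase Scd2, whose locus also carries Mir5114 and whose sequence is close to Scd1, changed by -0.25 with an SE of 0.41, and Fads2 by -0.22.

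KO was then compared with WT, to see whether loss of MED1 altered these genes. No member passed without LPS, with LPS or averaged over treatments, where 0.0266%, 0.00887% and 0.0355% of all loci did. The median difference of the members was -0.09 without LPS (0.07 over all loci), 0.11 with LPS (0.05) and -0.01 on average (0.06). In limma, 1, 2 and 2 of the 31 members had an unadjusted p under 0.05 in the 3 comparisons. Over all 11272 loci, 94, 498 and 472 did. By adjusted p, no difference was detectable with 2 libraries a group, and intervals were wide. For Insig1 the average difference was 0.13 with a 95% interval from -0.50 to 0.76, and for Dhcr7 0.05 with one from -0.38 to 0.48.

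Mvd, which makes isopentenyl pyrophosphate (chromosome 8, 124957496 to 124967322, minus strand), came closest. It had 13.1 and 11.4 RPKM in KO with LPS, against 18.1 and 23.3 in WT with LPS. Untreated, it had 13.4 and 15.9 RPKM in KO, against 18.8 and 26.6 in WT. All 4 KO libraries lay below all 4 WT libraries, the only such member in either direction, where 0.248% of loci were lower and 1.01% higher in this way. The difference was -0.65 on average (SE 0.17, unadjusted p = 0.0060, adjusted p = 0.999), -0.58 without LPS and -0.71 with LPS. Next without LPS by p were Scd1 (0.94) and Ebp (0.24), and with LPS Scd1 (1.13) and Fasn (0.47), all at an adjusted p of 1.

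Scd1, which makes monounsaturated fatty acids (chromosome 19, 44468941 to 44482199, minus strand), had the largest average difference, 1.03 (SE 0.34, adjusted p = 0.999). It had 79.3 and 57.3 RPKM in KO with LPS, against 35.1 and 26.2 in WT with LPS. Untreated, it had 34.0 and 95.1 RPKM in KO, against 36.7 and 23.1 in WT. Untreated KO A lay among the WT libraries and the other 3 KO libraries above them. The summed level of 6 B cell markers, all of them in the table, was 1379 and 966 RPKM in KO with LPS, 595 and 399 in WT with LPS, 564 and 1677 in untreated KO, and 618 and 548 in untreated WT. The 3 libraries with the highest Scd1 were the 3 with the highest B cell sum, in the same order, and the part of B cells in the Scd1 values was not tested. Of 6 adipocyte markers, 5 stayed below 1 RPKM, among them 3 at 0 in every library. The exception was Fabp4, which macrophages also express.

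**Figure D5:**
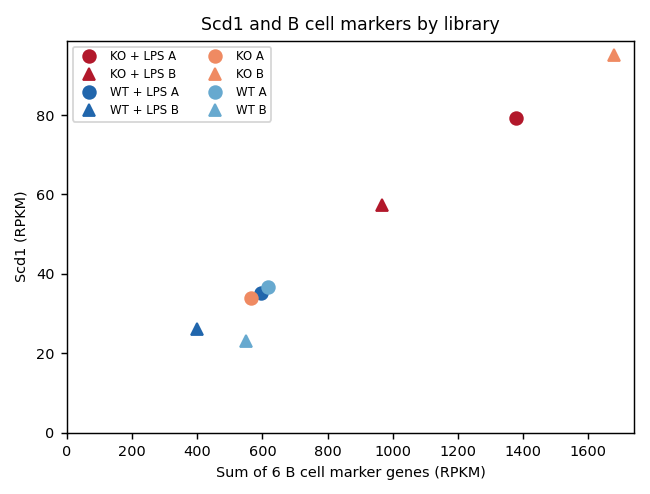
Scd1 level against the summed level of 6 B cell markers in each of the 8 libraries (both axes in RPKM). KO with LPS A and B and untreated KO B are highest on both axes, and untreated KO A lies with the 4 WT libraries.

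The response to LPS was then compared between genotypes directly, as KO minus WT. No member passed, where 0.0355% of loci did. None had an unadjusted p under 0.05 in limma, where 184 of the 11272 loci did. The median over the members was 0.18, against -0.03 over all loci, but it was 0.56 within letter A and -0.25 within letter B. The smallest p were those of Fasn (0.59, SE 0.34, unadjusted p = 0.132), Mvk (0.41) and Fads1 (0.50). With LPS, 15 of the 17 sterol enzymes were higher in KO than in WT within letter A (median 0.47), against 45.8% of all loci (median -0.03). Within letter B, 2 of 17 were higher (median -0.36), against 66% of all loci (median 0.14). The sign of a KO to WT difference in sterol genes under LPS was thus opposite in the 2 letters.

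Genes around the pathway were read from 4 lists for the averaged LPS response, where the median over all loci was -0.26, 21.8% of loci fell and 8.46% rose. With the letters in the fit, 26.7% fell and 9.78% rose. In a list of enzymes fed by or following the members, 2 of 16 tested, or 12.5%, fell and 0 rose (median -0.19), namely Fnta (-0.83, adjusted p = 0.0264), which attaches farnesyl groups to proteins, and Cyb5r3 (-0.77, adjusted p = 0.0420), a reductase that supplies electrons. Acss2, which makes acetyl-CoA from acetate, changed by -0.83 (adjusted p = 0.158), and the thiolase Acat1 by -0.67 (adjusted p = 0.0610), which passed with the letters in the fit (adjusted p = 0.0473). In a list on fatty acid supply and activation, 4 of 20, or 20%, fell and 3, or 15%, rose (median -0.10), and with the letters in the fit 5 fell, Ptpla being added (-0.90, adjusted p = 0.0064, against 0.138 without). Lpin1, a phosphatidate phosphatase, had 0.898 and 1.06 RPKM in KO with LPS, 1.10 and 0.623 in WT with LPS, 7.88 and 10.001 in untreated KO, and 6.91 and 9.06 in untreated WT, a change of -2.30 (adjusted p = 8.5e-04). Ptplad2 fell by 3.69 and Ptplad1 by 1.14, both of a family of elongation-cycle dehydratases, and Acsl1, an acyl-CoA synthetase, rose by 1.58 (adjusted p = 0.0117). The LPS libraries of Lpin1 were all far below the untreated ones.

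In a list on the control of SREBP processing, 6 of 26, or 23.1%, fell and 0 rose (median -0.077), a share of falls near that of all loci. These included Lpin1, which is also known to restrain nuclear SREBP, the retinoid receptor Rxra (-1.15, adjusted p = 0.0065) and the kinase Akt1 (-0.83, adjusted p = 0.0236). The other 3, named after their values were seen, were the ubiquitin ligase subunit Fbxw7 (-0.78, adjusted p = 0.0179), the deubiquitinase Usp8 (-0.52, adjusted p = 0.0394) and Mbtps1, the first SREBP-cleaving protease (-0.45, adjusted p = 0.0494). Nr1h3, the oxysterol receptor LXR alpha, changed by -0.85 and did not pass (adjusted p = 0.294). In a list on oxysterols and cholesterol esters, 3 of 12, or 25%, rose and 6, or 50%, fell (median -0.88), and with the letters in the fit 8 fell, the additions being Hsd3b7 (-1.04, adjusted p = 0.0058, against 0.0556 without) and Osbpl8 (-0.59, adjusted p = 0.0174, against 0.105 without). Ch25h, which makes 25-hydroxycholesterol, a sterol that blocks SREBP processing, had 11.04 and 6.42 RPKM in KO with LPS, 10.9 and 37.6 in WT with LPS, 0.444 and 0.631 in untreated KO, and 0.632 and 0.227 in untreated WT. Its LPS libraries were all above the untreated ones, WT with LPS B being the highest, and Ch25h rose by 3.27 (SE 0.37, adjusted p = 0.0023). Soat2, a cholesterol esterifying enzyme, rose by 2.11, while Nceh1, a cholesteryl ester hydrolase, fell by 3.04 and Cyp27a1, a sterol 27-hydroxylase, by 2.58. No gene of these lists passed between KO and WT in any comparison, including the difference of responses.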

How the data were processed

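RNA was measured in 8 libraries of 4 groups. The authors deposited 1 table of RPKM values. They used bcl2fastq, TopHat2 2.0.14 for alignment to mm9 and Cufflinks 2.2.1 for expression, per the submitters' processing notes. For annotation and strandedness, none is given in the sources used. The table's 24192 lines hold 23735 loci, as 457 lines repeat a locus under another symbol, and each was used once. Depth was set with 165 single-transcript genes of GENCODE vM1.

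Loci with at least 1 RPKM in 2 libraries (11272) were analysed as log2(RPKM + 1), unscaled, in R 4.3.3 with limma 3.58.1, 1 mean per group and trended variances. The 7 contrasts were tested two-sided. Calls needed a Benjamini-Hochberg adjusted p under 0.05 over all these loci. The fit was also run on simulated data, with changes in KO with LPS alone and independent noise in each library. Such data lack the deviations shared by letter described below, and no result here rests on them. Figures were made with Python 3.11.15 and matplotlib 3.10.9.

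Pairing by letter was checked by how libraries deviate from their group's mean. Deviations of the same letter correlated at 0.20 to 0.41 in all 6 pairs of groups. The replicate block, a term for the letter, is therefore given where it changes a call.

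Members and lists were chosen with earlier results of these data known. Called members, regulators and the extremes of each role are named with their values, and of each list the 4 genes with the largest LPS change, beside genes whose call the block changes. Alternatives were another scaling, pseudocount, filter or block, and leaving out each library. Promoters are RefSeq's (GRCm38.p6).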

Additional observations from a re-analysis of the deposited data

How the results depend on the processing

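Of 224 alternatives to the 16 called member results, 168 kept the call, 56 lost it and none turned its direction, and 24 alternatives to uncalled results passed. The cause was not tested. The share of all loci that passed moved between settings as well. With LPS in KO, 3.31% of loci fell in the fit used above, 0.561% with no filter and 9.04% with the replicate block. With LPS in WT, these shares were 3.14%, 0.603% and 10.4%, and 3.14% with median-ratio scaling. On average, 21.8% fell in the fit used above and 26.7% with the block. Shares also moved when a library was left out, and with only the 2 groups compared they were not counted. With LPS in KO, the 3 falls became 1 with no filter, 1 with only the 2 groups compared and 5 with the replicate block, and 0 to 3 leaving out a library. With LPS in WT, the 4 falls became 1 with median-ratio scaling, no filter or only the 2 groups compared, and 7 with the replicate block, and 0 to 7 leaving out a library. On average, the block added 1 rise, and leaving out a library gave 6 to 10 falls. Rises numbered 0 to 2 in KO, 0 to 2 in WT and 0 to 5 on average. The members' median LPS change in WT was -0.016 with median-ratio scaling and -0.024 with quantile normalization, and -0.62 to -0.15 leaving out a library. On average it was 0.037 with median ratios, 0.032 with quantiles, -0.26 with a pseudocount of 0.1 and -0.21 with no filter, and -0.33 to -0.094 leaving out a library. The untreated KO minus WT median was -0.18 with median ratios and -0.19 with quantiles, and -0.16 to -0.013 leaving out a library. No genotype comparison gained a call. A fit that leaves a group 1 library assumes that it varies like the others, and 2 libraries a group limit what could pass.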
